A study of Mus musculus with 4 samples.

Results

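The genes described here encode proteins of platelet granules and of the platelet surface, together with the beta tubulin of the platelet's microtubule coil. The set was fixed by name as 10 genes, chosen with earlier results of these data known. Its genes are Pf4, Ppbp, Itga2b, Itgb3, Gp9, Gp1ba, Gp1bb, Gp6, Clec1b and Tubb1. Of these, 9 had at least 1 probe set of their own on the array, among 18193 genes so measured, and Gp1ba was not analysed here. A probe set is a group of short probes that reads 1 transcript region, and the 9 genes were read by 11 probe sets. RNA came from spleen cells of mice isolated as CD11b+, an antigen of neutrophils, monocytes and macrophages, and each of the 4 samples combined RNA of 5 mice. The labels name 2 pools from mice under repeated social threat (HighThreat) and 2 pools from control mice (LowThreat), and give no strain, age, sex, duration of the threat or batch. Pooled RNA shows no spread between single mice. The p-values set each difference against variation between pools, with the variance of a probe set drawn toward that of probe sets of similar level.

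Platelets are shed into the blood by megakaryocytes, which in mice are found in the spleen as well as in bone marrow. Their alpha granules hold chemokines such as platelet factor 4 and pro-platelet basic protein. On their surface, a complex of the GPIb chains with GPIX binds von Willebrand factor, GPVI binds collagen, CLEC-2 binds podoplanin, and the integrin of the alpha IIb and beta 3 chains binds fibrinogen. Transcription factors of the GATA and ETS families act at promoters of many megakaryocyte genes.

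Of the 9 measured genes, 5 rose in social threat and 0 fell, each gene being read by its brightest probe set. The granule chemokine genes Ppbp and Pf4 rose by 1.00 and 0.89 on the log2 scale, the receptor chain genes Itga2b and Gp9 by 0.43 and 0.39, and Gp1bb by 1.69. Itgb3, Gp6, Clec1b and Tubb1 were not called. A gene was called at an adjusted p under 0.05 in limma, with Benjamini-Hochberg adjustment over all 45037 probe sets, and over all genes 9.4% were called higher and 11.7% lower. By probe set, 5 of 11 were called higher, against 7.09% of all probe sets. Both social threat pools lay above both control pools for 8 of the 11 probe sets, against 24.1% of all. They lay below them for 1, a count whose share over all probe sets was not computed. The median log2 fold change was 0.39 over the 9 genes and -0.02 over all genes. The shares over all include dim probe sets, while 8 of the 11 member probe sets had a mean log2 level above 5. Shares among probe sets of like level were not computed. The members were chosen with earlier results of these data known, so these shares are no independent test of them. Itga2b and Gp9 were not called when either social threat pool was left out. With 1 pool left out in turn, their rises lay between 0.35 and 0.50 and between 0.32 and 0.47. Calls over all probe sets also became fewer when either social threat pool was left out.

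Of the promoter windows supplied for 9 of the 10 genes, those of the 5 genes that rose are printed, so that the letters before their start sites can be compared. Each is the 150 bases before the start site on the gene's own strand, 5′ to 3′, from RefSeq for the GRCm38.p6 build. The windows lie at chr5:90772285-90772434 (plus strand) for Pf4, chr5:90768368-90768517 (plus strand) for Ppbp, chr11:102469884-102470033 (minus strand) for Itga2b, chr6:87777920-87778069 (plus strand) for Gp9 and chr16:18622404-18622553 (minus strand) for Gp1bb. Capitals mark matches on either strand to an ETS-type motif (AGGAAG or CGGAAG) or to a GATA-type motif (AGATAA or TGATAA or AGATAG or TGATAG), and no match of one motif overlapped the other.
Pf4: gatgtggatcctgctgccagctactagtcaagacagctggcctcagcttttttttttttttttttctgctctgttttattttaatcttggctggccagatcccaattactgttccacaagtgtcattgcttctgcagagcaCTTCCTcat
Ppbp: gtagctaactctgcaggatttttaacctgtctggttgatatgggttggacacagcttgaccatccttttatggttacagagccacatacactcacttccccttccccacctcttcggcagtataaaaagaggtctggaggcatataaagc
Itga2b: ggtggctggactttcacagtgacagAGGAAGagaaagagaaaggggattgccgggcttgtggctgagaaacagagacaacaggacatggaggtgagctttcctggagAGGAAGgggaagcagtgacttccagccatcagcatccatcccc
Gp9: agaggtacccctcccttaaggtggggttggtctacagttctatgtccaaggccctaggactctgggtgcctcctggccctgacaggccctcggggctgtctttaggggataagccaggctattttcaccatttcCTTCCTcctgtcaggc
Gp1bb: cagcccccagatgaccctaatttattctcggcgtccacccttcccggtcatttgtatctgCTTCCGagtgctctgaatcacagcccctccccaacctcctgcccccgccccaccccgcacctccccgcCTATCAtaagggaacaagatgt

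Pf4 and Gp9 had an ETS-type match that began 9 and 16 bases before the start site, and Itga2b had matches at 125 and 43 bases. Gp1bb held both kinds, an ETS-type match at 90 bases and a GATA-type match at 22. Ppbp held neither within the 250 bases searched. Over the 9 windows, 6 held an ETS-type and 4 a GATA-type match, against 39.2% and 26.5% of 32851 promoter windows of the same length. A match is a run of letters and does not show that a factor binds there.

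Values below are deposited log2 levels made with RMA, which subtracts background, gives all arrays 1 shared distribution and reduces the probes of a set to a single level. The table gives no detection calls, and the array medians lay between 4.41 and 4.43, so levels near 4.4 cannot be told from background here. The CD11b sort marker Itgam stood at 10.47 and 11.01 in the control pools and at 11.64 and 11.59 in the social threat pools, a rise of 0.88 (SE 0.13, limma adjusted p = 0.0015) that was not called with a robust prior (adjusted p = 0.163). Other myeloid genes of the sort list, the beta 2 integrin chain gene Itgb2 and the lysozyme gene Lyz2 among them, had control means between 11.25 and 13.83. Of the 6 sort markers, 5 rose and 0 fell, Itgb2 by 0.22 (SE 0.03), and 3 rose without either social threat pool and 1 without the variance trend. Their part in the platelet gene differences was not tested. In such bulk pools, a change in the number of platelets or megakaryocytes and a change in their RNA per cell cannot be told apart. The labels name no step that removes platelets.

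**Figure D1:**
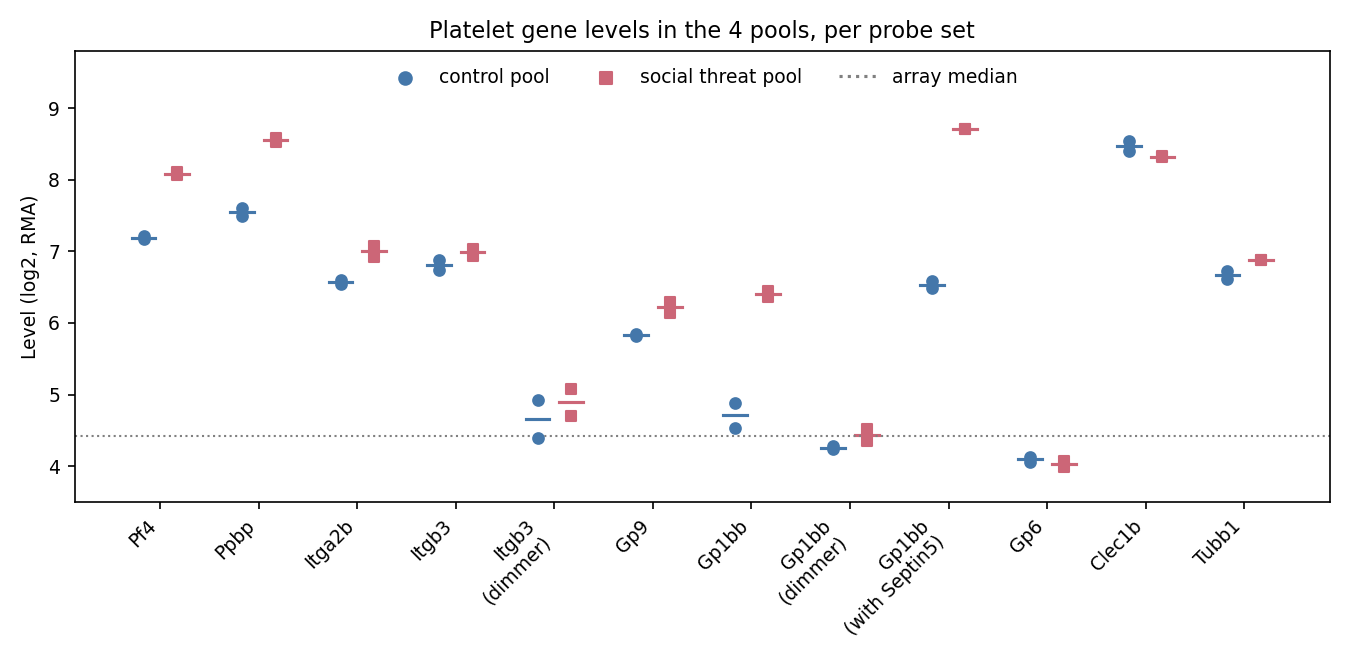
Level (log2, RMA) of each platelet probe set in every pool, with circles for the 2 control pools, squares for the 2 social threat pools, short lines for group means and a dotted line at the array median. Pf4 and Ppbp show the social threat pools well apart from the control pools, while Gp6 and the dimmer Gp1bb probe set lie near the array median in all 4 pools.

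Pf4 encodes platelet factor 4 (CXCL4), a chemokine stored in alpha granules. Its level was 7.21 and 7.17 in the control pools and 8.07 and 8.10 in the social threat pools. The groups were 0.85 apart at their nearest pools, and the rise of 0.89 (SE 0.08) was a 1.86-fold difference (limma adjusted p = 6.81e-05). Ppbp encodes pro-platelet basic protein (CXCL7), the precursor of chemokines that attract neutrophils. It stood at 7.61 and 7.50 in the control pools and at 8.53 and 8.58 under social threat. These pools were likewise apart, by 0.92, and the rise of 1.00 (SE 0.08) was a 2.00-fold difference (limma adjusted p = 2.81e-05). Each gene was read by a single probe set and was called under all 10 alternative settings, over which the log2 fold change ranged from 0.87 to 0.92 for Pf4 and from 0.95 to 1.05 for Ppbp.

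Pf4 and Ppbp lie side by side on chromosome 5 in RefSeq, within a run of CXC chemokine genes, and none of the measured genes next to them in that run was called higher. Cxcl3, the next protein-coding gene after Pf4, fell from 6.86 and 6.87 to 5.74 and 5.84, a difference of -1.07 (SE 0.10, limma adjusted p = 9.95e-05). Cxcl1 and Cxcl2, further along the same run, fell by 0.57 (SE 0.07) and 0.41 (SE 0.03). Cxcl5, on the other side of Ppbp, lay between 2.82 and 2.89 in the 4 pools, below the array median, and was not called. The neighbours were looked up after the values were seen. The 9 members are flanked by 13 measured protein-coding genes that are not members themselves. Of these, 0 rose, against 9.4% of all genes, 4 fell, against 11.7%, and the median log2 fold change was -0.12. Several, Cxcl5, Tbx1, Clec12b and Fam171a2 among them, lay below the array median in every pool. A change could hardly be read there, so the lack of rises says little. The falls were those of Cxcl3, Rab43, Rdh13 and Ctsz, and the calls of Rdh13 and Ctsz were lost without either social threat pool. Rdh13 lay near the array median, at 4.64 and 4.45 in controls and 4.13 and 3.95 under social threat. Its call was also lost without control pool 1.

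**Figure D2:**
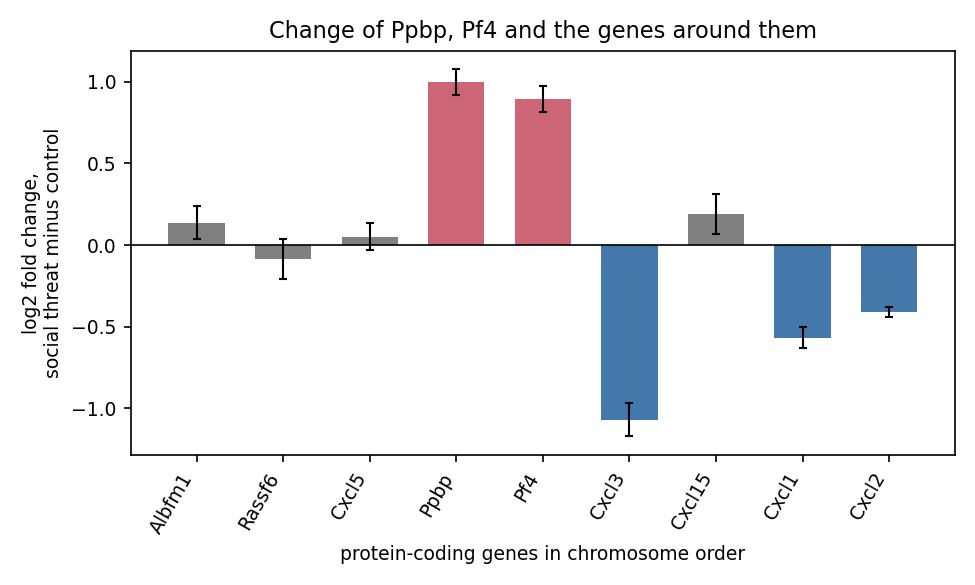
log2 fold change (social threat minus control, bars; error bars are the SE of the limma fit) of Ppbp, Pf4 and the protein-coding genes on either side, in chromosome order. Red bars rose, blue bars fell and grey bars were not called: Ppbp and Pf4 stand at 1.00 and 0.89 beside Cxcl3 at -1.07.

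Itga2b encodes integrin alpha IIb (CD41), which megakaryocytes and platelets carry. Its level was 6.61 and 6.55 in the control pools and 7.08 and 6.92 in the social threat pools, with no overlap. The rise was 0.43 (SE 0.10), a 1.34-fold difference (limma adjusted p = 0.0182), and adjusted p was 0.262 without social threat pool 1 and 0.0935 without social threat pool 2. Itgb3 encodes the beta 3 chain (CD61), which pairs with alpha IIb and, in other cells, with alpha V. Its brighter probe set read 6.87 and 6.74 in the control pools and 7.04 and 6.93 under social threat. The groups were 0.06 apart, and the difference of 0.18 (95% interval -0.05 to 0.40) was not called (limma adjusted p = 0.314). The dimmer probe set overlapped between the groups, with 4.39 and 4.93 against 4.70 and 5.08, and its difference of 0.23 became -0.04 without control pool 1. Itgav, the alpha V chain, fell by 0.23 (SE 0.06, limma adjusted p = 0.026) by the brightest of its 5 probe sets, and the 4 other probe sets were not called. That call was lost without either social threat pool and without the variance trend, and adjusted p was 0.512 as the mean of its probe sets.

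The von Willebrand factor receptor was read through Gp9 and Gp1bb. Gp9, the glycoprotein IX chain, stood at 5.85 and 5.81 in the control pools and at 6.15 and 6.30 under social threat. The pools did not overlap, and the rise was 0.39 (SE 0.11), a 1.31-fold difference (limma adjusted p = 0.0418). That call lies close to the threshold and was lost with any 1 of the 4 pools left out, with adjusted p of 0.0507 and 0.0629 without control pools 1 and 2, and 0.151 and 0.376 without social threat pools 1 and 2. Gp5, the glycoprotein V chain of the same complex, stood at 4.99 and 5.17 in controls and at 5.31 and 5.27 under social threat and was not called (limma adjusted p = 0.34).

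Gp1bb, the beta chain of glycoprotein Ib, had the largest difference of the 9 genes by the brightest probe sets, and its own probe sets disagreed. The brighter one rose from 4.89 and 4.53 to 6.36 and 6.44, by 1.69 (SE 0.14), a 3.22-fold difference (limma adjusted p = 3.94e-05). The control values lie near the array median, where background can set the size of the rise. The dimmer one stood at 4.23 and 4.29 against 4.51 and 4.35, near the array median in every pool, and was not called (limma adjusted p = 0.455). A further probe set, which the platform annotation assigns to both Septin5 and Gp1bb, rose from 6.59 and 6.48 to 8.71 and 8.71, by 2.17 (SE 0.08), a 4.51-fold difference (limma adjusted p = 3.92e-07). Septin5 encodes a septin, a filament protein also present in platelets, and its span overlaps that of Gp1bb in RefSeq. The 2 genes cannot be told apart by the shared probe set, and Septin5 had no probe set of its own in the annotation used. The mean of both Gp1bb probe sets rose by 0.93, below the 1.00 of Ppbp.

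The genes of the receptors GPVI and CLEC-2 were not called. Gp6 encodes glycoprotein VI, the collagen receptor, and read 4.14 and 4.06 in the control pools and 4.07 and 3.99 under social threat. These values overlap and lie below the array median, so Gp6 could not be told from background here. Clec1b encodes CLEC-2, which in mice is also found on some myeloid cells. Its level was 8.54 and 8.40 in the control pools and 8.32 and 8.32 in the social threat pools. Both social threat pools were the lower ones, by a gap of 0.08, and the difference of -0.15 (95% interval -0.32 to 0.02) was not called (limma adjusted p = 0.26). Fcer1g, the signalling chain that GPVI uses and that myeloid cells share, lay between 12.70 and 12.78 and was not called, and Pdpn, the CLEC-2 ligand, lay between 5.76 and 6.07 and was not called.

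Tubb1 encodes the beta 1 tubulin of the marginal band that gives platelets their disc shape. It stood at 6.72 and 6.62 in the control pools and at 6.88 and 6.88 in the social threat pools. The pools did not overlap, but the difference of 0.21 (95% interval -0.01 to 0.43) was not called (limma adjusted p = 0.206). Of 7 other beta tubulin genes, 2 rose and 3 fell, and 1 fell without either social threat pool. Tubb4b rose by 0.88 (SE 0.06) by the brightest of its 6 probe sets, and Tubb5 by 0.62 (SE 0.04). Most other Tubb4b probe sets were not called, among them the second brightest, with a difference of 0.24 (limma adjusted p = 0.223). Tubb6 fell by 0.62 (SE 0.07) by its brighter probe set. Its dimmer one, below the array median, differed by 0.06 and was not called. Tubb2b fell by 0.49 (SE 0.14), a call lost under 4 of 10 alternatives.

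**Figure D3:**
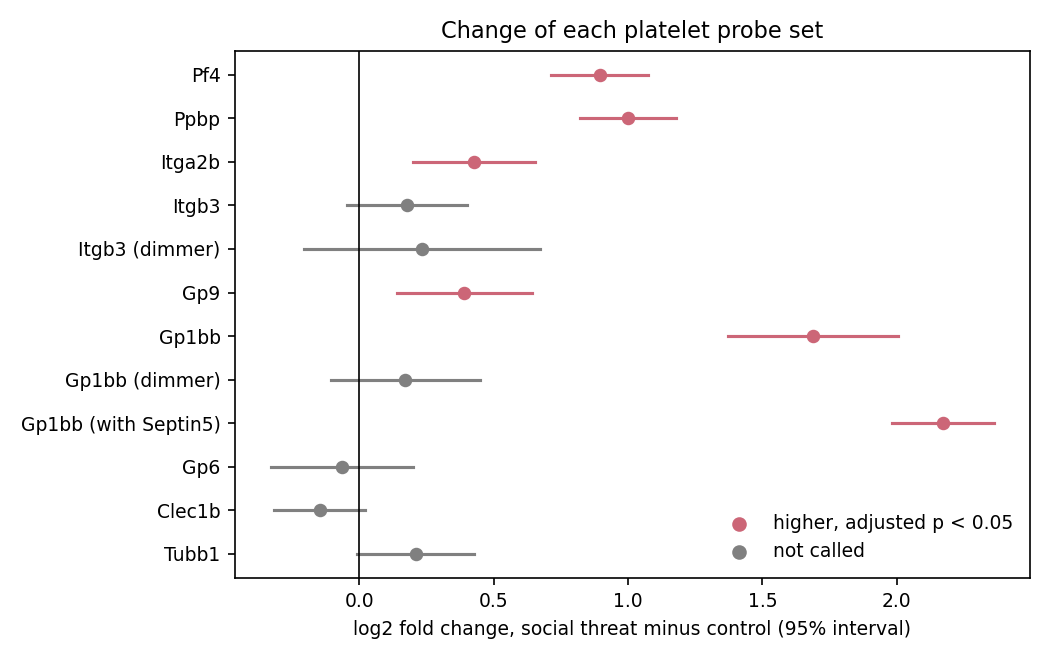
log2 fold change of each platelet probe set (social threat minus control, points) with its 95% interval from the limma fit (lines). Red marks probe sets called higher and grey those not called: Gp1bb has the largest change of an own probe set at 1.69, and the intervals of Clec1b, Gp6, Itgb3 and Tubb1 include 0.

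The other genes of the platelet pathway did not move as 1 block. Across 6 lists of such genes, 85 of 91 were measured, of which 25 rose, 15 fell and 45 were not called, with a median of 0.06. Over all genes, 9.4% were called higher and 11.7% lower, and the list counts below should be read beside these shares. The shares include genes near background, and shares among genes of like level were not computed. Leaving out social threat pool 1 gave 14 rises and 7 falls, and leaving out social threat pool 2 gave 15 rises and 6 falls. Without the variance trend there were 15 rises and 8 falls.

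Among 14 other platelet surface receptors, 3 rose and 2 fell, with 0 falls without social threat pool 1 and 1 rise and 1 fall without social threat pool 2. The ADP receptor gene P2ry1 rose by 0.77 (SE 0.12), from 4.44 and 4.57 to 5.25 and 5.30. Selp, the P-selectin of alpha granule membranes, rose by 0.54 (SE 0.10), from 6.65 and 6.73 to 7.17 and 7.28. These Selp values are from the brightest of its 3 probe sets. A dimmer one also rose, by 0.53 (SE 0.14), and the dimmest, below the array median, was not called. Without social threat pool 2 the call of Selp was lost (adjusted p = 0.105). P2ry12, a further ADP receptor gene, rose by 0.35 (SE 0.10) and Esam, a junction protein also found on endothelium, fell by 0.51 (SE 0.13), calls that were lost under 4 and 2 of 10 alternatives, among them leaving out social threat pool 1. Of 12 other granule cargo genes, 2 rose and 2 fell. The coagulation factor genes F5 and F13a1, which monocytes and macrophages can also express, rose by 0.50 (SE 0.06) and 0.22 (SE 0.03), and the growth factor genes Pdgfb and Tgfb1 fell by 0.61 (SE 0.10) and 0.45 (SE 0.05). The call of Pdgfb was lost without social threat pool 2 (adjusted p = 0.0766) and that of F13a1 without the variance trend (adjusted p = 0.164). Vwf, von Willebrand factor, lay between 5.64 and 5.84 with overlapping groups and was not called.

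Genes of granule making and release rose for 6 of 14 and fell for 0, with a median of 0.27, and 3 rose without either social threat pool or without the variance trend. The GTPase gene Rab27a rose by 0.65 (SE 0.07), and the membrane fusion genes Stx11, Stxbp2 and Unc13d by 0.56 (SE 0.05), 0.42 (SE 0.05) and 0.33 (SE 0.10). Control means of these genes lay between 7.90 and 9.47, against 4.10 to 8.47 for the 9 members. Which cells of the sort carried this RNA was not tested. The call of Unc13d was lost with 3 of the 4 pools left out in turn, control pool 2 and either social threat pool. Of 19 signalling genes, 4 rose and 5 fell, and these counts were 0 and 2 without social threat pool 1 and 1 and 1 without social threat pool 2. The calcium sensor gene Stim1 rose by 0.53 (SE 0.08), a call lost without social threat pool 1 (adjusted p = 0.0612), and the 12-lipoxygenase gene Alox12 by 0.48 (SE 0.13), a call lost under 5 of 10 alternatives, among them leaving out control pool 2 or either social threat pool. The adaptor gene Lat, which T cells also use, fell by 1.00 (SE 0.10), and the thromboxane synthase gene Tbxas1 fell by 0.47 (SE 0.08), the latter not called without either social threat pool.

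Of 11 cytoskeleton genes, 6 rose and 1 fell, with a median of 0.23. Tuba8, an alpha tubulin, rose by 1.79 (SE 0.12), from 5.15 and 5.30 to 7.12 and 6.91 by its brighter probe set. Its other probe set also rose, by 0.68 (SE 0.13, limma adjusted p = 0.00561), but lay below the array median in all 4 pools. The adhesion protein genes Vcl and Actn1 rose by 0.92 (SE 0.06) and 0.77 (SE 0.04), and the myosin light chain gene Myl9 by 0.58 (SE 0.11), a call lost without either social threat pool. Control means were 9.16 for Vcl and 10.40 for Actn1. Which cells of the sort carried these RNAs, or that of Nfe2 below, was not tested. Among 15 transcription factor genes of megakaryocytes, 4 rose and 5 fell, and these counts were 2 and 2 without social threat pool 1 and 3 and 2 without social threat pool 2. Nfe2, which is needed for platelet release and is also present in red cell precursors, rose from 9.88 and 9.87 to 10.86 and 10.81, by 0.96 (SE 0.04), and Tal1 by 0.83 (SE 0.12). Mafk and Mef2c fell by 0.63 (SE 0.08) and 0.55 (SE 0.12), the latter not called without either social threat pool. Gata1 stood at 5.09 and 5.09 against 5.28 and 5.31, with no overlap, and was not called (limma adjusted p = 0.307). Fli1, an ETS factor gene, was picked for mention once its values were known. Its brighter probe set rose by 0.47 (SE 0.12), a call lost without either social threat pool and without the variance trend, and its other probe set rose by 0.58 (SE 0.08).

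**Figure D4:**
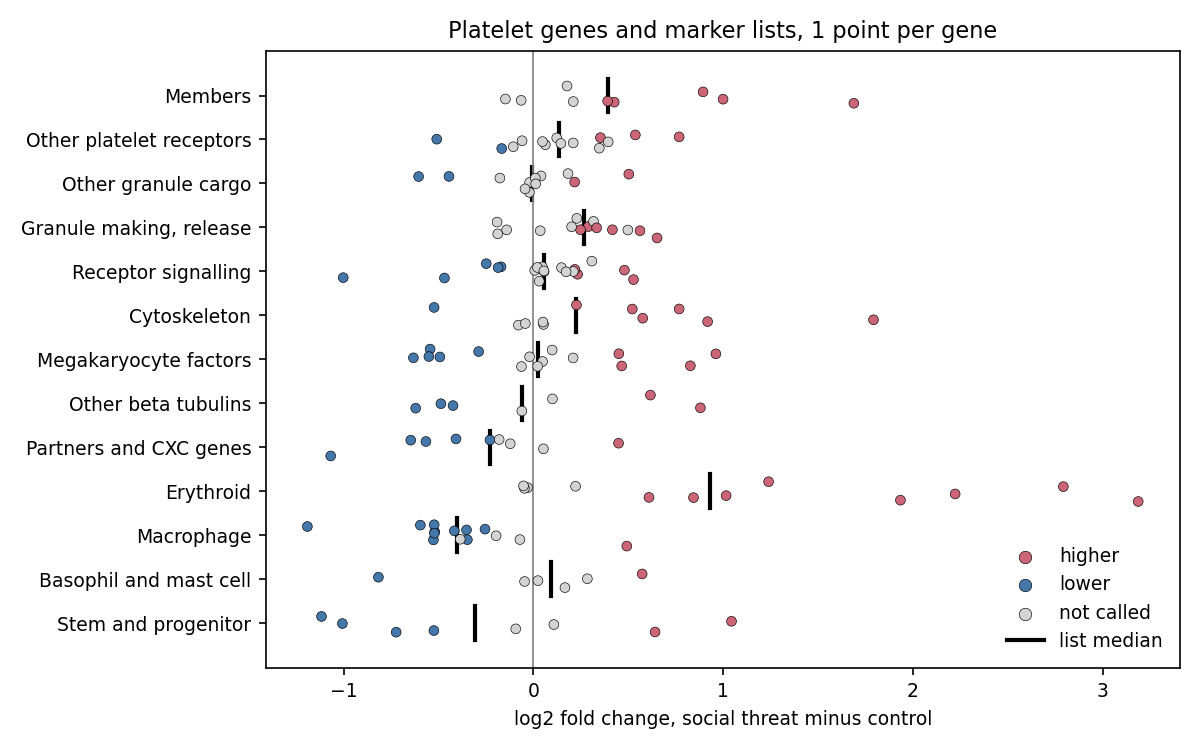
log2 fold change (social threat minus control) of each measured gene by its brightest probe set, 1 row per list, with red for genes called higher, blue for lower, grey for not called and a black line at the list median. The 9 members have a median of 0.39, the erythroid list 0.93 and the macrophage list -0.40.

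Markers of other cells moved in the same pools, and their part in the platelet gene differences was not tested. Erythroid markers, whose cells share a precursor with megakaryocytes, had 8 rises and 0 falls among the 12 genes measured, with a median of 0.93, and their summed level on the linear scale went from 1021 to 1104 in controls to 2077 to 2165 under social threat. Slc4a1, the band 3 anion exchanger, stood at 5.34 and 5.32 in controls and 8.57 and 8.46 under social threat. The summed linear level of the 9 members went from 1057 to 1139 in controls to 1509 to 1520. Such sums weigh bright genes most. By control mean the brightest were Tfrc of the erythroid list, at 8.99, and Clec1b of the members, at 8.47, and neither was called. Macrophage markers, relevant because some macrophages express Pf4, fell for 10 of 14 and rose for 1, with a median of -0.40 and a summed linear level of 25170 to 25230 in controls and 20060 to 20130 under social threat. Csf1r was the brightest macrophage marker, with a control mean of 13.05, and fell by 0.26 (SE 0.03). Axl fell by 1.19 (SE 0.06) and C1qa by 0.60 (SE 0.04).

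All 10 measured immature neutrophil genes rose, with a median of 2.88, as did all 9 measured cell cycle genes, with a median of 2.15, and these lists were among those already known to differ when they were chosen. Of 8 stem and progenitor markers, 2 rose (1 without either social threat pool) and 4 fell, with Flt3 at -1.12 (SE 0.10) and Myb at 1.04 (SE 0.07). Of 6 basophil and mast cell markers, which bear on Itga2b because mast cell precursors can carry CD41, 1 rose and 1 fell. Mcpt8, a basophil protease, rose by 0.57 (SE 0.14) and Il4 fell by 0.82 (SE 0.20), and leaving out control pool 1 or social threat pool 1 ended the call of Il4, and control pool 2 or either social threat pool that of Mcpt8. RMA values have no zero, and 5 of these 6 markers and 7 of the 12 erythroid markers had a control mean under 5. Of the chemokine receptors of the members, Cxcr2, which binds products of Ppbp and is carried by neutrophils, rose by 0.45 (SE 0.08), a call lost without social threat pool 1 (adjusted p = 0.0796) and without the variance trend, and Cxcr3 fell by 0.65 (SE 0.10).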

How the data were processed

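Affymetrix mouse arrays were made from 4 RNA pools, 2 per group, each of 5 mice. The deposited values are log2 levels of probe sets. The submitters' processing notes name RMA without a version. The levels ran from 2.26 to 14.25 and were used without further normalization. RMA narrows differences of dim probe sets, and the number of arrays limits the precision. Groups came from the sample titles. The labels name no array batch or order, so batch and group cannot be told apart.

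Gene names came from the platform annotation: 34945 of 45037 had 1 gene symbol, 932 several and 9160 none listed. The 2 groups were compared by limma 3.58.1, run in R 4.3.3 (lmFit, and eBayes with a mean-variance trend, 2 residual and 7.14 prior degrees of freedom), two-sided, with Benjamini-Hochberg adjustment over all probe sets. An exact permutation test of 2 pools against 2 cannot go below p = 0.333 and was not used. The code was tested on simulated data. Group differences are social threat minus control. The summed linear level of a list is the sum over its genes of 2 raised to the log2 level. The members and the 15 other gene lists were chosen with earlier results of these data known. All members were named with every probe set. Up to 4 called genes per list were picked by size of change, though not all of these are named here. Itgav, Fcer1g, Pdpn, Gata1, Vwf, Gp5 and Itgam were named whatever their values. Pool numbers are shared between the groups, and a fit with the number as a block was run as an alternative. The others left out the variance trend, used a robust prior, kept probe sets with a mean above 5, centred each array, averaged a gene's probe sets, or left out each pool in turn.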

Additional observations from a re-analysis of the deposited data

How the results depend on the processing

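Under the 10 alternatives run, Pf4, Ppbp and Gp1bb were called higher each time, while Itga2b was called in 8 and Gp9 in 6. Of 105 log2 fold changes of member probe sets under these alternatives, 98 kept their direction and side of the threshold, 6 lost the call and 1 changed direction, the dimmer Itgb3 probe set, which ranged from -0.039 without control pool 1 to 0.504 without control pool 2. Leaving out 1 pool at a time, 3 to 4 member probe sets and 3 to 4 member genes were called higher, and 0 lower. In the same runs, 14 to 27 genes of the 6 wider platelet lists rose and 6 to 13 fell. Without the variance trend these were 15 and 8, and calls over all probe sets went from 7099 in the main fit to 4689. With a pool left out, its lone partner is assumed to vary like the others. The labels do not say whether equally numbered pools were paired. Deviations of equally numbered pools correlated at 0.0519 across probe sets, a single value that cannot exclude a shared day or batch. The fit with the replicate block called 5 member genes higher, 0 lower, and 28 and 15 wider genes. It called 8168 probe sets in all, against 7099 in the main fit. The mean of both Gp1bb probe sets gave 0.93. The filter at a mean of 5 kept 8 of 11 member probe sets. The naming rule picked 58 called genes from the lists, and 39 of them were called under every alternative that could be run for them. Not all of the 58 are named above. The picked immature neutrophil and cell cycle genes are not, and were called each time, so the share is not that of the named genes. The cause of lost calls was not tested. No detection calls limit what can be said of Gp6, the dimmer Gp1bb probe set and other values near the array median.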
